A study of Caenorhabditis elegans with 16 samples.

Results

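The C-type lectin genes of Caenorhabditis elegans were taken as the rows of the raw count table whose symbol is clec- followed by a number alone, which gave 264 of 46904 rows. Of these, 58 (22%) had enough counts for testing. Whole synchronised worms had been kept for 3 days at 20 °C on agar plates with Escherichia coli, and their RNA was counted in 16 libraries, 4 in each of 4 groups. The untreated control had the control genotype and no added copper, and the copper-treated control had the same genotype and 100 µM CuCl2. The untreated mutant carried cua-1(H828Q) without added copper, and the copper-treated mutant carried cua-1(H828Q) with 100 µM CuCl2. The labels do not name the strain behind the control genotype, give the cell type as not known, and state neither the larval or adult stage nor the sex of the worms. The gene cua-1 encodes the worm's copper-transporting ATPase, and the missense allele cannot be read from counts per gene. In RNA from whole worms, fewer cells of a type and less RNA per cell cannot be told apart.

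C-type lectins are proteins built around a conserved lectin-like fold first known from animal proteins that bind sugars in a calcium-dependent way, although many members of the family lack the residues needed for that binding. In C. elegans the family is greatly expanded. Many of its members carry a signal peptide, are made in the intestine and change in transcript level when the worm meets a pathogen, and several are targets of the p38 MAP kinase pathway of the gut. In the mutant on copper, the genes of the family that changed mostly rose, among them clec-52, clec-47, clec-66, clec-67 and clec-3. The named genes were higher than in the control on copper and than in the mutant without it. Among all genes tested, too, more rose than fell in both comparisons (6.39% against 0.542%, and 1.78% against 0.46%). The share that changed was larger among the tested members (31% and 25.9%) than among all genes tested (6.93% and 2.24%). In the control on copper fewer members changed, 12.1% of those tested against 1.78% of all genes tested. There clec-52 and clec-47 fell in the fit to all libraries. Neither fall was called in a fit to the libraries of that comparison alone.

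Library totals ran from 1891008 to 4001750 counts, so 3 counts corresponded to 0.661 to 1.69 CPM (counts per 1000000 counts of the library size after TMM scaling). The gene cua-1 was read at 5.05 to 36.8 CPM. In 5 libraries, genes with transcripts over 3000 bp were scarce against genes under 800 bp, with a difference in median log2 CPM of -2.0 to -0.68, while the other 11 lay between 0.20 and 0.94. These long-depleted libraries, a class that the labels do not name and that was set from the counts, were untreated control replicates 1, 3 and 4, copper-treated control replicate 1 and copper-treated mutant replicate 4. Results are therefore also given without them, which leaves the untreated control with 1 library. All p-values below are Benjamini-Hochberg adjusted values of edgeR's quasi-likelihood test over the 9787 genes tested, a gene is called at an adjusted p under 0.05, values after ± are SDs over 4 libraries for levels and standard errors for log2 fold changes, and the 5 comparisons share libraries with each other.

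Most of the family was silent or nearly so in these worms. No count was found for 106 of the 264 genes in any library, where a count of 0 allows up to 3 counts, or 0.661 to 1.69 CPM, in a library. A further 49 genes had 1 to 9 counts over all 16 libraries, and 51 had 10 or more but did not pass the filter. Among the 239 protein-coding members, 24.3% were tested, against 47.8% of the 19020 protein-coding rows of the table. The 25 rows annotated as pseudogenes held 41 counts together, and none was tested. Chromosome V held the most members, 96 with 16 tested, followed by chromosome IV with 58 and 19, chromosome II with 51 and 14, chromosome I with 38 and 4, chromosome III with 18 and 4, and chromosome X with 3 and 1. Members that passed only through a group in which they were high had to differ between groups, so the 58 are not a sample of all 264. Untested genes could differ too. The genes clec-125 and clec-153, chosen after their values were seen, show it: clec-125 had 8, 8, 8 and 10 counts in the copper-treated mutant and 2 in all other libraries together. In a fit with no filter beyond 1 count it was called in mutant against control on copper (adjusted p = 0.0113). The gene clec-153 had 7, 14, 13 and 10 counts in the untreated mutant and 0 in the untreated control (adjusted p = 0.00468 in that fit).

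Counts were concentrated in a few genes. The 264 rows held 250679 counts, of which 99.2% fell in the 58 tested genes, 65.7% in clec-87, clec-63, clec-1 and clec-88, and 32.2% in clec-87 alone. The mean level over 16 libraries was at least 100 CPM for 9 tested members and at least 10 CPM for 30, with a median of 10.7 CPM against 19.5 CPM over all tested genes. Divided by transcript length, the mean level was 1683 CPM per kb for clec-87, 739 for clec-1, 518 for clec-63, 333 for clec-47, 296 for clec-88, 210 for clec-50, 177 for clec-150, 157 for clec-83, 146 for clec-91 and 98.6 for clec-48. The assay counts transcript ends, so a longer transcript need not give more counts. On the CPM scale without length, the same 10 genes led, with clec-63 above clec-1 and clec-88 above clec-47. That order is one of means over all libraries. Of the family's counts, without copper, clec-1 took 5.73 ± 5.32% in the control and 18.7 ± 2.78% in the mutant. For clec-63 the shares were 14.2 ± 3.26% and 10.9 ± 0.914%, so the order of the mean shares turned between the groups. In untreated control replicate 4 alone, clec-1 already lay above clec-63, with 1478 counts against 1272. Mutant against control without copper was not called for clec-1 (adjusted p = 0.089).

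The most abundant member, clec-87, was read at 2321, 1433, 2314 and 2404 CPM in the untreated control, and its levels on copper in that genotype were 2320, 1324, 1288 and 1432 CPM. The mutant had 1111, 1173, 975 and 1065 CPM without copper and 1442, 1334, 1360 and 2552 CPM on copper. The 5 highest levels were those of the 5 long-depleted libraries. The untreated mutant lay below every other group, and its fall against the untreated control (log2 fold change -0.97 ± 0.26, adjusted p = 0.0227) was lost without untreated control replicate 1 or 3 or any of the 4 untreated mutant replicates (adjusted p 0.0505 to 0.0603). The log2 fold change without the long-depleted libraries was -0.46 (adjusted p = 0.0124). The transcript of clec-87 overlaps on the opposite strand the annotated gene iars-2, which had a mean of 35.5 CPM.

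As a share of all counts, the family was largest in the copper-treated mutant. It took 0.545, 0.569, 0.562 and 0.589% of the counts there, against 0.461, 0.435, 0.447 and 0.428% in the copper-treated control. Without copper the mutant's shares were 0.393, 0.436, 0.436 and 0.419%, and those of the control 0.487, 0.421, 0.475 and 0.461%. The 4 copper-treated mutant libraries lay above all 12 others, and the other groups overlapped with each other. The mean share without the long-depleted libraries was 0.559% in the copper-treated mutant and 0.437% in the copper-treated control. The summed level on the TMM scale was 5857 ± 1337 CPM in the copper-treated mutant, 4388 ± 1042 CPM in the copper-treated control, 3611 ± 170.3 CPM in the untreated mutant and 5731 ± 1702 CPM in the untreated control, so on that scale the untreated control was near the copper-treated mutant. The sums without the long-depleted libraries were 5191 CPM (n = 3), 3868 CPM (n = 3), 3611 CPM (n = 4) and 3394 CPM (n = 1) in the same order.

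**Figure D1:**
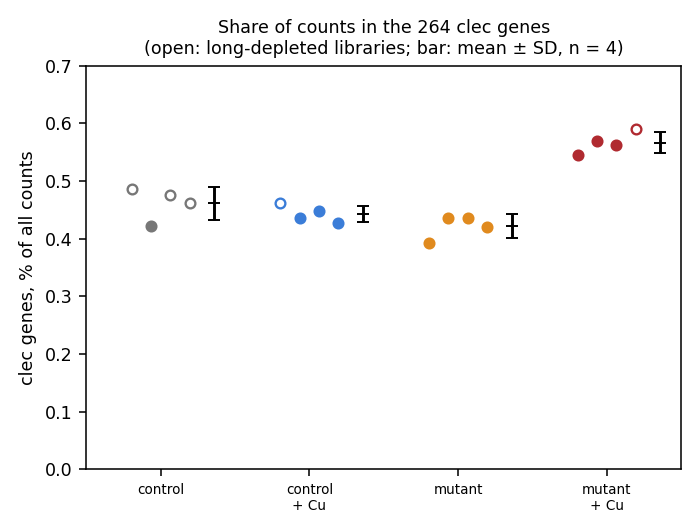
Share of all counts that fell in the 264 clec genes, in percent, with 1 point per library (open points are long-depleted libraries) and bars for the mean ± SD of 4 libraries. The copper-treated mutant ran from 0.545 to 0.589%, above all 12 other libraries, which ran from 0.393 to 0.487%.

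Mutant against control, both on copper, asked how the genotype changed the family under the same copper load. Of the 58 members, 16 rose and 2 fell in the mutant, 31% of those tested, against 6.93% of all genes tested (6.39% higher and 0.542% lower). The median log2 fold change was 0.51 over the members and -0.04 over all genes. Without the long-depleted libraries 25 members rose and 4 fell, beside 23.4% of all genes called, and all 18 of the original calls were kept.

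The gene clec-52 (chromosome IV, 8167164 to 8168760, minus strand) had the smallest adjusted p. It was read at 41.5, 44.4, 40.7 and 44.5 CPM in the copper-treated mutant and at 2.14, 2.38, 3.04 and 1.82 CPM in the copper-treated control. The groups were far apart, with little spread in either, and the long-depleted library of each lay among its neighbours. The difference was 18.2-fold (log2 fold change 4.18 ± 0.37, adjusted p = 9.4e-06), with a range of 3.99 to 4.33 over 24 alternative fits. In the other groups clec-52 was read at 20.2, 5.92, 15.4 and 8.43 CPM in the untreated control and at 4.19, 5.87, 5.46 and 3.6 CPM in the untreated mutant.

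The gene clec-47 (chromosome V, 15175759 to 15176324) was the most abundant of those that rose. Its levels were 342, 384, 314 and 487 CPM in the copper-treated mutant and 65.2, 49, 44.3 and 51.3 CPM in the copper-treated control, with no overlap (log2 fold change 2.86 ± 0.37, adjusted p = 0.000212). Of the family's own counts, clec-47 took 6.55 ± 0.486% in the copper-treated mutant and 1.21 ± 0.0953% in the copper-treated control. Its highest level in the mutant was in the long-depleted replicate 4. The difference without the long-depleted libraries was 2.82 (adjusted p = 5.37e-15).

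Next came 3 members with intermediate levels. The gene clec-66 was read at 69.9, 72.2, 57.9 and 86.2 CPM in the copper-treated mutant against 24.2, 20.5, 7.1 and 12.3 CPM in the copper-treated control (2.17 ± 0.36, adjusted p = 0.00144). The gene clec-67, an intestinal target of the p38 pathway, was read at 29.4, 41.6, 41.2 and 43.4 CPM against 9.26, 2.86, 3.38 and 5.25 CPM (2.88 ± 0.47, adjusted p = 0.00144). The gene clec-3 was read at 24.3, 29.6, 28.9 and 42 CPM against 2.49, 2.86, 2.03 and 2.51 CPM (3.64 ± 0.63, adjusted p = 0.00197). In each of these, all 4 copper-treated mutant libraries lay above the 12 libraries of the other groups. That held for 10 of the 58 members, the others being clec-45, clec-52, clec-72, clec-73, clec-76, clec-169 and clec-265, beside 1.77% of all genes tested. Among the 10, clec-3, clec-72 and clec-76 passed the low-count filter only through the copper-treated mutant. In the same set, clec-73 and clec-169 passed it only through the mutant groups. No member had all 4 copper-treated mutant libraries below the other 12, beside 0.327% of all genes.

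A group of low members rose from near the counting floor. The gene clec-76 had 0 counts in the 4 copper-treated control libraries and 9.08, 5.26, 3.68 and 6.94 CPM in the copper-treated mutant, which makes it at least 25.2-fold higher against 3 counts over the group (adjusted p = 0.00162). The gene clec-70, known to rise when worms feed on Staphylococcus aureus, was read at 5.64, 9.08, 8.58 and 9.49 CPM against 0.712, 2.38, 0.338 and 0.684 CPM (3.08 ± 0.65, adjusted p = 0.00699). The gene clec-72 was read at 9.08, 10.3, 8.09 and 11 CPM against 1.07, 2.38, 1.01 and 0 CPM (3.25 ± 0.70, adjusted p = 0.00823). Both pairs of groups were apart. As clec-70, clec-72 and clec-76 passed the low-count filter only through the copper-treated mutant, a high level there was a condition of testing them. The genes clec-73 (2.11 ± 0.42, adjusted p = 0.00487) and clec-169 (2.75 ± 0.59, adjusted p = 0.00782) rose from means of 1.70 and 1.35 CPM to 7.69 and 8.76 CPM. The gene clec-117 had 51 counts in the copper-treated mutant and 3 in the copper-treated control, a ratio of 13.8 with a 95% counting interval of 4.47 to 69.2 (adjusted p = 0.0111). For clec-73, clec-117 and clec-169 the low-count filter was passed only through the mutant groups. A high level in the mutant was thus a condition of testing them too.

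The remaining 5 rises were smaller and less stable. The gene clec-62 rose by 1.40 ± 0.33 (adjusted p = 0.0142), a call lost without copper-treated control replicate 2 (adjusted p = 0.0529) or 3 (adjusted p = 0.0623). The gene clec-49, which takes part in defence against Serratia marcescens, rose from 27.8, 21.4, 17.6 and 19.6 CPM to 38.8, 45.4, 44.1 and 59.5 CPM (1.12 ± 0.27, adjusted p = 0.0167), and its call was lost without copper-treated control replicate 2, 3 or 4 (adjusted p 0.0525 to 0.0708). The genes clec-205 (1.45 ± 0.41, adjusted p = 0.0382) and clec-265 (1.14 ± 0.32, adjusted p = 0.0412) kept the sign in every alternative. They lost the call without copper-treated control replicate 2, 3 or 4, copper-treated mutant replicate 2, 3 or 4 or untreated mutant replicate 1, and also without untreated mutant replicate 2 for clec-205 and 3 for clec-265 (adjusted p 0.0515 to 0.145). The gene clec-84 was read at 11, 11.9, 12 and 4.02 CPM in the copper-treated mutant against 3.2, 3.33, 3.72 and 4.11 CPM, so the groups overlapped through the long-depleted mutant replicate 4 (1.44 ± 0.38, adjusted p = 0.0259). Its call was lost without any copper-treated control replicate or without copper-treated mutant replicate 1, 2 or 3 (adjusted p 0.0627 to 0.0947), and it overlaps on the opposite strand Y54G2A.15, a gene with a mean of 2.86 CPM.

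Against the direction of the rest, clec-41 and clec-218 fell. The gene clec-41, which takes part in defence against Bacillus thuringiensis, was read at 52, 66.7, 77 and 85.4 CPM in the copper-treated mutant against 235, 189, 158 and 179 CPM in the copper-treated control (-1.44 ± 0.28, adjusted p = 0.00414). The groups were apart, but with offsets that remove each library's trend of counts on transcript length the log2 fold change was -1.13 (adjusted p = 0.154). The gene clec-218 was read at 1.23, 1.43, 0.736 and 1.1 CPM against 4.63, 8.09, 3.72 and 5.7 CPM, again with no overlap (-2.24 ± 0.50, adjusted p = 0.00923).

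**Figure D2:**
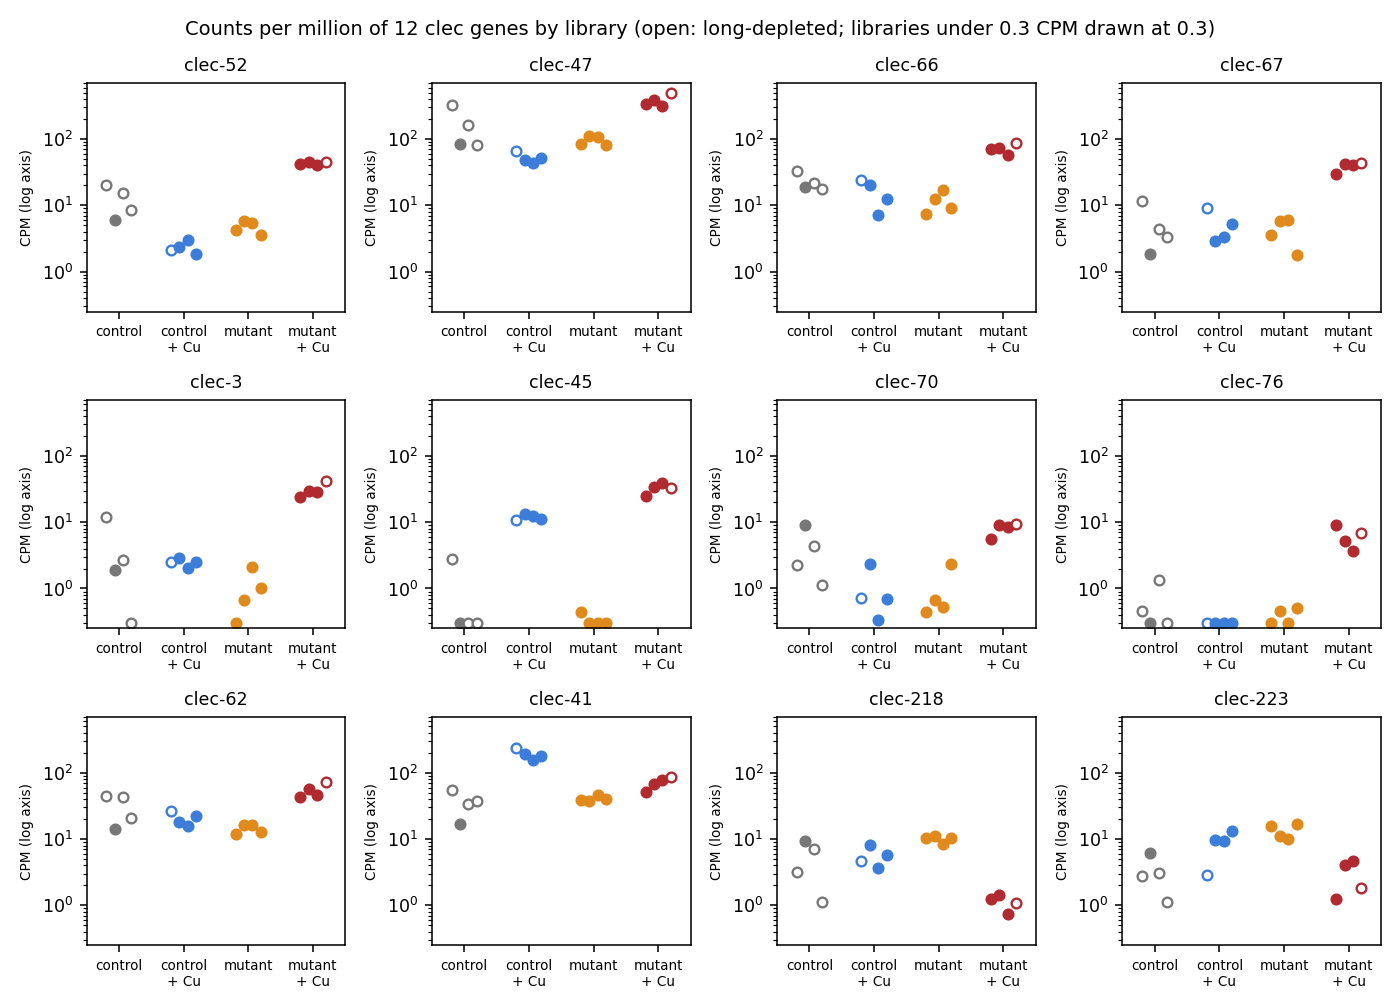
Level of 12 clec genes in CPM on a log axis, with 1 point per library and open points for the long-depleted libraries (libraries under 0.3 CPM are drawn at 0.3). In the panels of clec-52, clec-66, clec-67, clec-3, clec-45 and clec-76 the 4 copper-treated mutant libraries lie above the other 12, while clec-41 is highest in the copper-treated control and clec-218 is low in the copper-treated mutant.

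Within the mutant, copper raised 13 members and lowered 2, 25.9% of the 58 against 2.24% of all genes tested (1.78% higher and 0.46% lower). The median was 0.51 over the members and 0.02 over all genes. Without the long-depleted libraries 21 members rose and 3 fell, beside 14.5% of all genes called, and all 15 calls were kept. Of the genes higher in the copper-treated mutant, 10 were called against both the copper-treated control and the untreated mutant, 6 against the copper-treated control only and 3 against the untreated mutant only. Those 3 counts describe which tests passed, and whether the 2 contrasts differ for a gene was not tested.

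The change with the smallest adjusted p was that of clec-45 (chromosome V, 7638101 to 7638657), with 0.441, 0.226, 0 and 0 CPM in the untreated mutant and 24.8, 33.9, 38.5 and 32.5 CPM on copper. As the untreated mutant held 3 counts, the ratio of summed counts was 180-fold with a counting interval of 61.4 to 878 (adjusted p = 3.6e-05). The gene clec-52 rose by 3.15 ± 0.33 (adjusted p = 4.81e-05), clec-3 by 4.95 ± 0.68 (adjusted p = 0.000409), clec-66 by 2.63 ± 0.36 (adjusted p = 0.000409), clec-67 by 3.17 ± 0.47 (adjusted p = 0.000955) and clec-47 by 2.0 ± 0.35 (adjusted p = 0.00392). In all of these the groups were apart. The gene clec-265, with 9.04, 15.4, 12.2 and 7.72 CPM without copper and 38.5, 50.2, 46.6 and 63.9 CPM with it, rose by 2.16 ± 0.33 (adjusted p = 0.0013) and kept its call in every alternative, unlike its difference from the copper-treated control.

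Further rises were those of clec-62 (1.94 ± 0.33, adjusted p = 0.00337), clec-72 (3.90 ± 0.71, adjusted p = 0.00489), clec-76 (4.50 ± 0.78, adjusted p = 0.006) and clec-70 (3.03 ± 0.61, adjusted p = 0.011). The call of clec-70 was lost without untreated mutant replicate 1 (adjusted p = 0.0599) or 2 (adjusted p = 0.0542). The gene clec-63 was read at 368, 438, 414 and 349 CPM without copper and 782, 913, 789 and 1373 CPM with it (1.30 ± 0.32, adjusted p = 0.0416). Its neighbour clec-65 was read at 53.4, 63.7, 52.5 and 59 CPM and 109, 93.9, 96.9 and 141 CPM (0.95 ± 0.23, adjusted p = 0.0371). Neither gene had overlapping groups. Both calls were lost without any 1 of the 8 mutant libraries or copper-treated control replicates 2 and 4 (adjusted p 0.0544 to 0.15), and for clec-65 also replicate 3 (adjusted p = 0.0512).

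Copper lowered clec-218 in the mutant from 10.4, 11.1, 8.32 and 10.6 CPM to between 0.736 and 1.43 CPM (-3.12 ± 0.48, adjusted p = 0.00117). It lowered clec-223 from 15.9, 11.3, 9.88 and 17 CPM to 1.23, 4.06, 4.66 and 1.83 CPM (-2.16 ± 0.49, adjusted p = 0.0244). Neither gene's groups overlapped. The call of clec-223 was lost without untreated mutant replicate 1, 2 or 4 or copper-treated mutant replicate 1, 2 or 4 (adjusted p 0.0518 to 0.0846).

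In the control, copper changed fewer members: 3 rose and 4 fell, 12.1% of the 58 against 1.78% of all genes (0.46% higher and 1.32% lower). The median was -0.40 over the members and -0.05 over all genes. This contrast uses 4 of the 5 long-depleted libraries. Without them 7 members rose and 4 fell, beside 4.78% of all genes called, the members' median was 0.03, and 4 of the 7 calls were kept. Leaving out untreated control replicate 1 or 3 left 3 and 4 calls, and leaving out copper-treated control replicate 2, 3 or 4 left 3 each. Leaving out untreated control replicate 2 or 4 or copper-treated control replicate 1 gave 11, 12 and 11. The shares of all genes called in these fits are not given here.

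The gene clec-41 was read at 54.2, 17.1, 34.4 and 37.6 CPM without copper and 235, 189, 158 and 179 CPM with it. The groups were far apart, and the rise of 2.42 ± 0.29 (adjusted p = 0.000258) was the only call of this contrast kept in every alternative. Over the alternatives its adjusted p reached 0.0499 and its log2 fold change ran from 1.81 to 3.31. The gene clec-45 was read at 2.75, 0, 0 and 0 CPM without copper and 10.7, 13.3, 12.5 and 11.2 CPM with it (4.12 ± 0.69, adjusted p = 0.00551), with the 6 counts of the untreated control all in long-depleted replicate 1. In a fit to the libraries of this contrast alone its log2 fold change was 4.14 (adjusted p = 0.131). The gene clec-43 had 0 counts in the untreated control and 1.07, 3.33, 4.73 and 2.74 CPM on copper, at least 9.24-fold higher against 3 counts over the group (adjusted p = 0.0236). That call was lost without untreated control replicate 1 or copper-treated control replicate 2, 3 or 4 (adjusted p 0.0553 to 0.0796) and without the long-depleted libraries (adjusted p = 0.0507).

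The genes that fell in the control on copper were clec-52 (-2.40 ± 0.37, adjusted p = 0.00327), clec-47 (-1.64 ± 0.35, adjusted p = 0.024), clec-48 (-1.68 ± 0.37, adjusted p = 0.029) and clec-49 (-1.12 ± 0.27, adjusted p = 0.0432). For clec-47 the untreated control was read at 322, 84.1, 165 and 81.5 CPM, with both highest values in long-depleted libraries, and the copper-treated control lay below all of them. For clec-48 the untreated control was read at 280, 96.6, 191 and 93.3 CPM and the copper-treated control at 87.6, 32.9, 47 and 38.8 CPM, also apart. Without the long-depleted libraries clec-47 still fell, by 0.84 (adjusted p = 0.00722), and clec-48 by 1.32 (adjusted p = 0.000282), while clec-52 was at -1.37 (adjusted p = 0.0908) and clec-49 at -0.65 (adjusted p = 0.181). The calls of clec-47 and clec-48 were lost without untreated control replicate 1 or 3 or copper-treated control replicate 2, 3 or 4 (adjusted p 0.0514 to 0.132). In a fit to the libraries of this contrast alone the 4 fold changes were -2.34, -1.60, -1.66 and -1.09, and none was called (adjusted p 0.121 to 0.29). The call of clec-49 was lost without any of 12 libraries, among them the same 5 (adjusted p 0.0527 to 0.162).

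The interaction, which subtracts the control's log2 response to copper from the mutant's, tested the difference between the responses directly. It was higher for 15 members and lower for 3, 31% of the 58 against 5.38% of all genes (4.11% higher and 1.28% lower). The median interaction was 1.03 over the members and 0.08 over all genes. Without the long-depleted libraries 12 were higher and 6 lower, beside 12.2% of all genes called, with 12 of the 18 calls kept, and the members' median was 0.32. Leaving out copper-treated control replicate 1 gave 28 calls, and the share of all genes called in that fit is not given here.

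The interaction was 5.55 ± 0.50 for clec-52 (adjusted p = 1.17e-05) and 3.64 ± 0.50 for clec-47 (adjusted p = 0.000883). These are the 2 genes that were called down on copper in the control and up in the mutant. Of the 58 members, clec-52 alone was called in all 5 comparisons. For clec-66 (3.14 ± 0.50, adjusted p = 0.00202), clec-3 (5.68 ± 0.97, adjusted p = 0.00266), clec-70 (5.23 ± 0.91, adjusted p = 0.00326), clec-62 (2.5 ± 0.47, adjusted p = 0.00489), clec-63 (2.11 ± 0.45, adjusted p = 0.0103) and clec-67 (3.15 ± 0.69, adjusted p = 0.0114), the response was called in the mutant and not in the control. Of these, clec-67 lost its call without the long-depleted libraries (2.04, adjusted p = 0.137). For clec-49 (2.09 ± 0.38, adjusted p = 0.00434) and clec-48 (2.33 ± 0.52, adjusted p = 0.0126), the response was called in the control and not in the mutant.

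The interaction of clec-76 (adjusted p = 0.0255) rests on a group with 0 counts, so its fitted size is not given. It was lost without untreated control replicate 1 (adjusted p = 0.0609) or 3 (adjusted p = 0.178), and without all long-depleted libraries no count was left in either control group. The gene clec-222 had an interaction of 1.97 ± 0.46 (adjusted p = 0.0174). It was 1.49 (adjusted p = 0.0848) without the long-depleted libraries, 1.47 (adjusted p = 0.0717) with length offsets and 1.86 (adjusted p = 0.055) with no filter beyond 1 count. The interactions of clec-205 (2.09 ± 0.56, adjusted p = 0.0373), clec-265 (1.67 ± 0.47, adjusted p = 0.0453) and clec-227 (2.80 ± 0.80, adjusted p = 0.0498) were each lost without untreated control replicate 1 and 10 other single libraries (adjusted p 0.0515 to 0.114) and without the long-depleted libraries (0.88, 0.91 and 1.70, adjusted p 0.181 to 0.343). For clec-265 and clec-227 the call was also lost with DESeq2 size factors, no filter beyond 1 count or length offsets (adjusted p 0.0512 to 0.0752).

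Lower interactions were found for clec-223 (-3.51 ± 0.71, adjusted p = 0.00743), clec-218 (-3.14 ± 0.65, adjusted p = 0.00834) and clec-41 (-1.63 ± 0.39, adjusted p = 0.0199). For clec-41 copper raised the level in the control and the response in the mutant was 0.78 ± 0.28 on the log2 scale and not called, and with length offsets the interaction was -0.57 (adjusted p = 0.569). The gene clec-45, with a large rise in both genotypes, and clec-43 had no called interaction. Over the called interactions, 11 of 18 were kept in every alternative: clec-3, clec-47, clec-48, clec-49, clec-52, clec-62, clec-63, clec-66, clec-70, clec-218 and clec-223.

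**Figure D3:**
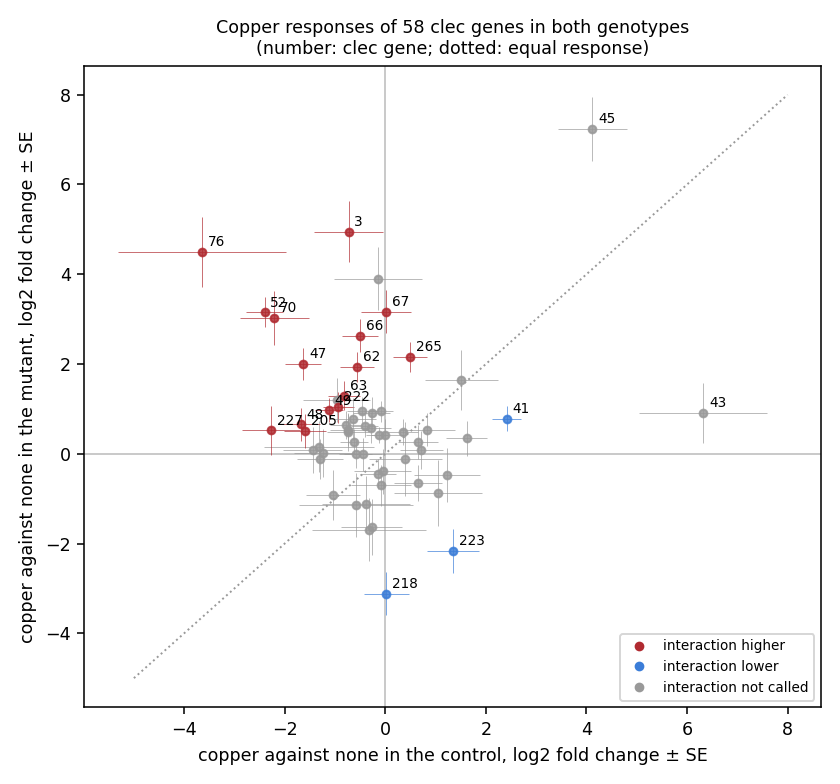
Log2 fold change on copper in the mutant against that in the control for the 58 tested clec genes, with bars for the standard error of the fit, the number of each gene beside called or far points and a dotted line for equal responses. Points above the line have a positive interaction, among them clec-52 at -2.40 and 3.15 and clec-47 at -1.64 and 2.0, and clec-41, clec-218 and clec-223 are the called points below it.

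**Figure D4:**
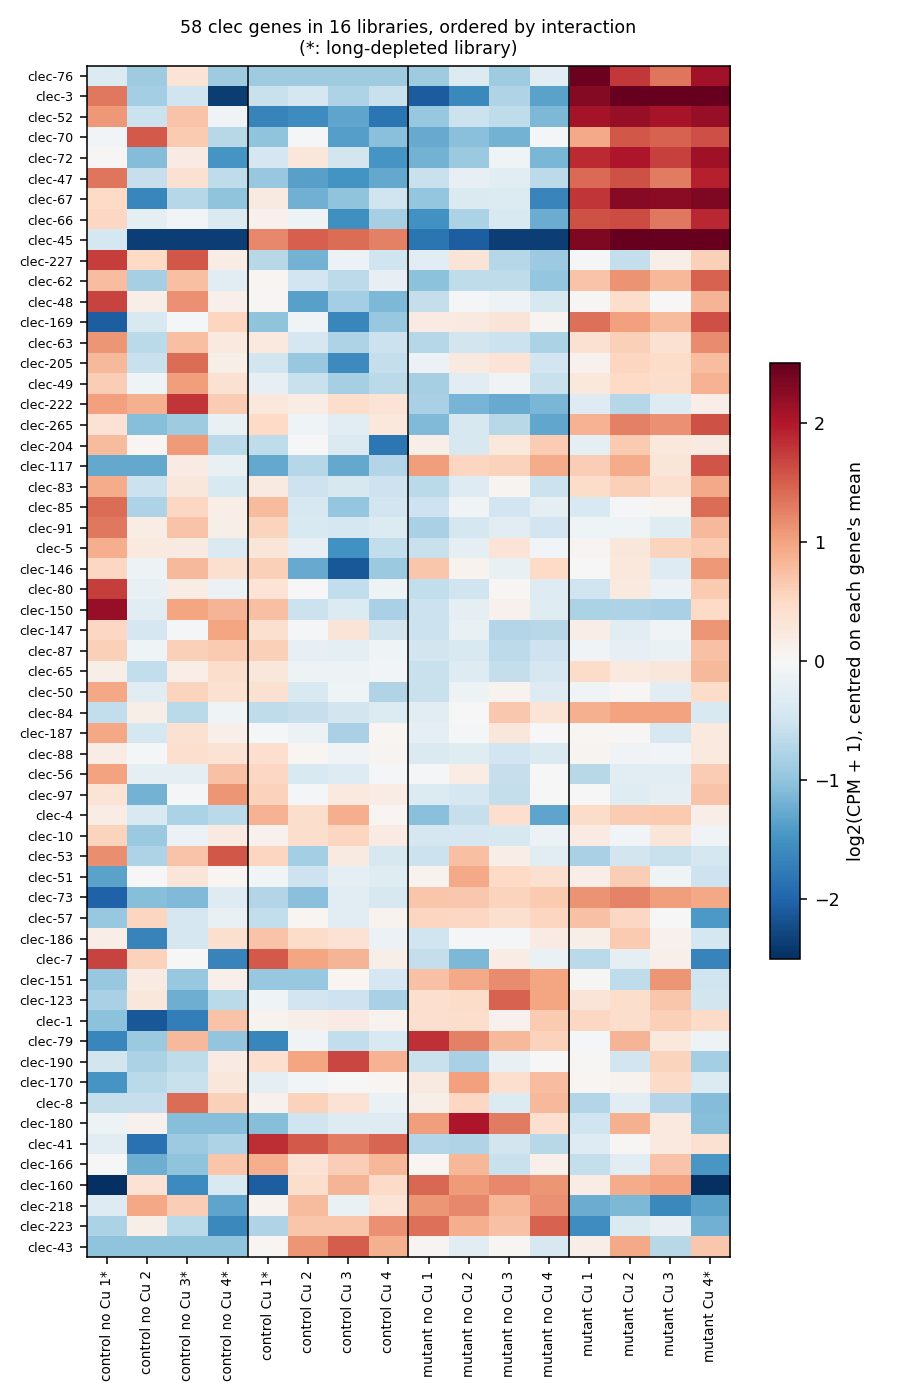
Level of the 58 tested clec genes (rows, ordered by the interaction) in the 16 libraries (columns, with the long-depleted ones starred), as log2(CPM + 1) minus the gene's mean. The upper rows, from clec-76 to clec-45, are high in the 4 copper-treated mutant libraries, and many rows are also high in untreated control replicate 1, a long-depleted library.

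Without copper, the mutant differed from the control in 20 members, 8 higher and 12 lower, 34.5% of the 58 against 21.9% of all genes (9.39% higher and 12.5% lower). The median was -0.52 over the members and 0.00 over all genes, and without the long-depleted libraries the members' median was 0.31 with 7 higher and 4 lower, beside 17.5% of all genes called. As 3 of the 4 untreated control libraries and no untreated mutant library were long-depleted, genotype and this property of the libraries cannot be told apart here except through untreated control replicate 2. Leaving out untreated control replicate 1 left 6 calls, replicate 3 left 8, and leaving out untreated mutant replicates 1 to 4 left 7, 6, 7 and 4. The shares of all genes called in these fits are not given here.

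The calls of clec-222 and clec-73 were kept in all 24 alternatives. The gene clec-222 was read at 2.87, 2.03, 1.82 and 2.06 CPM in the untreated mutant against 12.9, 11.5, 22.5 and 9.55 CPM in the untreated control (-2.66 ± 0.34, adjusted p = 0.000508). Its neighbour clec-223 went the other way, with 15.9, 11.3, 9.88 and 17 CPM against 2.75, 6.23, 3.09 and 1.12 CPM (1.95 ± 0.50, adjusted p = 0.0184), a call lost without untreated mutant replicate 4 (adjusted p = 0.0523) or the long-depleted libraries (adjusted p = 0.126). The gene clec-73 was read at 5.51, 5.42, 4.94 and 5.41 CPM against 0, 0.934, 0.882 and 2.25 CPM (2.42 ± 0.49, adjusted p = 0.00591). It passed the low-count filter only through the mutant groups, so a high level in the mutant was a condition of testing it. In these genes the groups did not overlap, and the mutant libraries of clec-222 and clec-73 were within a narrow range.

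The other calls without copper were less stable. The gene clec-52 was lower in the mutant (-1.37 ± 0.33, adjusted p = 0.0143), a call lost without untreated control replicate 1 (adjusted p = 0.0506) and at -0.35 (adjusted p = 0.595) without the long-depleted libraries. The gene clec-91 (-1.18 ± 0.32, adjusted p = 0.0222) was lost without untreated control replicate 1 or untreated mutant replicate 1, 2 or 4 (adjusted p 0.0528 to 0.0746) and was at -0.75 (adjusted p = 0.00271) without the long-depleted libraries. The gene clec-70 (-2.15 ± 0.64, adjusted p = 0.0295) was lost without untreated control replicate 2 or 3 or untreated mutant replicate 1, 2 or 3 (adjusted p 0.0576 to 0.0937) and was at -3.23 (adjusted p = 0.000521) without the long-depleted libraries. The genes clec-48, clec-49, clec-62, clec-63, clec-88, clec-150 and clec-227 were called lower and clec-43, clec-79, clec-117, clec-123, clec-170 and clec-180 higher. Of these, clec-79 passed the low-count filter only through the untreated mutant, and clec-117, clec-123 and clec-180 only through the mutant groups. Each of the 13 lost its call without at least 5 single libraries, with adjusted p up to 0.167. Leaving out the long-depleted libraries brought 3 of them close to 0: clec-63 went from -1.11 ± 0.32 (adjusted p = 0.0273) to 0.0089 (adjusted p = 0.981), clec-62 from -1.10 to -0.024 (adjusted p = 0.971) and clec-150 from -1.42 to -0.0051 (adjusted p = 0.991). The gene clec-123 went from 1.78 to 0.69 (adjusted p = 0.479).

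Members that lie next to each other on a chromosome were then set side by side (positions are those of WBcel235, the assembly also named ce11). With gaps of at most 20 kb between tested members, 32 of the 58 fell in 11 runs. On chromosome II, from 12893062 to 12906644, clec-62, clec-63, clec-65 and clec-66 lie within 13.6 kb, a span with 5 clec genes. All 4 tested members rose on copper in the mutant, by 1.94, 1.30, 0.95 and 2.63 on the log2 scale, and clec-62 and clec-66 were also called against the copper-treated control. On chromosome IV, from 3922165 to 3975721, 13 clec genes lie within 53.6 kb and 6 of them were tested. Of these, clec-67, clec-70, clec-72, clec-73 and clec-76 were called higher in the copper-treated mutant than in the copper-treated control, with log2 fold changes of 2.11 to 3.25 for the first 4 and a lower bound for clec-76, and clec-79 was not called (1.37 ± 0.76). Of the genes called here, clec-73 passed the low-count filter only through the mutant groups. As clec-70, clec-72 and clec-76 passed it only through the copper-treated mutant, the number of rises in this run was partly set by the filter.

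Other neighbours did not move alike. The genes clec-222 and clec-223, on the same strand of chromosome V between 11271351 and 11278161, had called interactions of opposite sign, 1.97 and -3.51. The gene clec-51, next to clec-52, was called in no comparison, and its difference between the copper-treated mutant and control was 0.40 on the log2 scale, beside 4.18 for clec-52. The gene clec-51 overlaps faah-1 on the opposite strand, which had a mean of 15.2 CPM beside 12.8 CPM for clec-51. The gene clec-50, next to clec-49, was likewise called in no comparison. Genes next to each other in such runs are often similar in sequence, and how the counting treated reads that match several of them is not given in the sources used here.

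**Figure D5:**
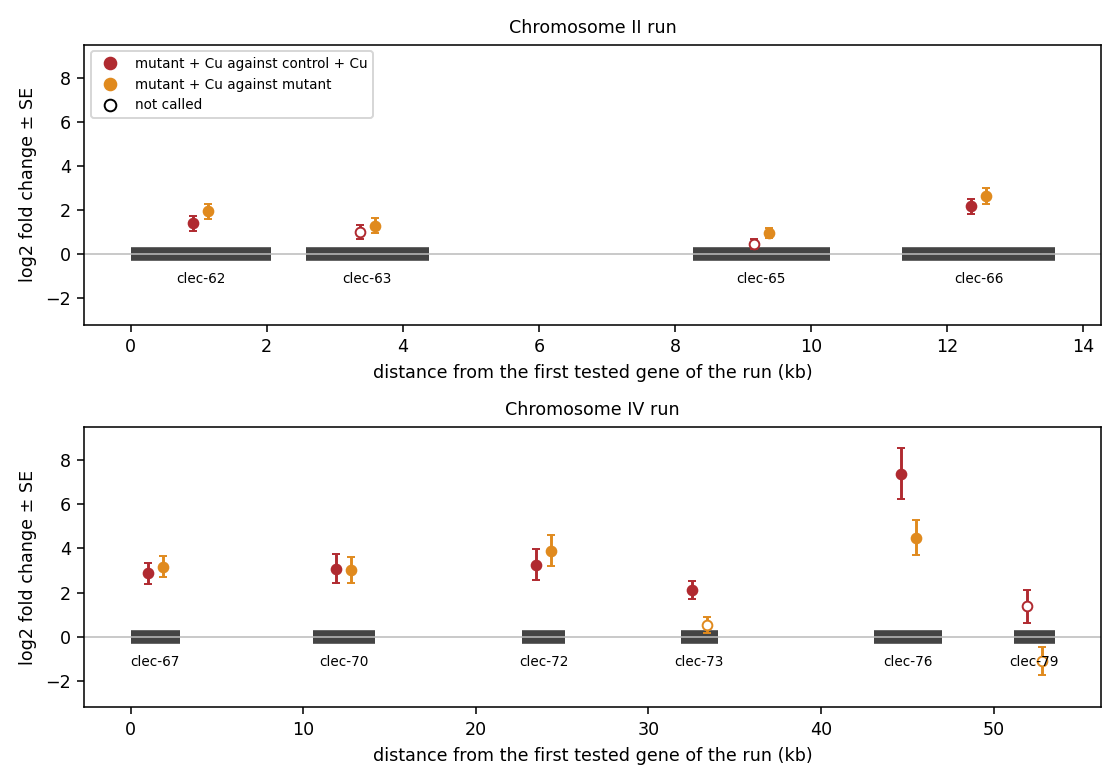
Log2 fold change ± standard error of the tested clec genes in the runs on chromosomes II and IV, placed by distance in kb from the start of the run, with dark bars for the genes and open points for changes that were not called. All 4 tested genes of the chromosome II run have a called rise on copper in the mutant. In the chromosome IV run, 5 of 6 tested genes are called higher than in the copper-treated control. Among them, clec-70, clec-72 and clec-76 passed the low-count filter only through the copper-treated mutant, and clec-73 only through the mutant groups.

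Several members with a known part in defence or development were too low to test. No count was found for clec-38, which acts in axon outgrowth, clec-39, a partner of clec-49 in the defence against Serratia marcescens, or clec-61. The genes clec-60 and clec-71, which respond to Staphylococcus aureus like clec-70, had 39 and 106 counts over the 16 libraries. For clec-60 the control gave 3 of these without copper and 0 with it, and the mutant 9 without copper and 27 with it, a difference on copper that was called in the fit with no filter beyond 1 count (adjusted p = 0.0443). For clec-71 they were 13, 14, 41 and 38 in the same order. The genes clec-17 and clec-42 had 14 and 12 counts, 11 and 9 of them in the copper-treated mutant. The gene clec-4, tested with 94 counts, was called in no comparison, nor was clec-85, a p38 target read at 29.4, 37, 40.2 and 103 CPM in the copper-treated mutant and 66.9, 29, 19.3 and 27.1 CPM in the copper-treated control, where the highest value of each group was in its long-depleted library.

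Of 38 listed genes of immune signalling, which act upstream of such effectors in the worm's p38, TGF-beta and other defence pathways, 35 were tested. By edgeR none was called in mutant against control on copper, where 4 had an unadjusted p under 0.05 and DESeq2 called 0. When the long-depleted libraries were left out, 5 were higher and 1 lower there, beside 23.4% of all genes called. Copper against none gave 0 calls by edgeR in either genotype, with an unadjusted p under 0.05 for 5 genes in the control and 4 in the mutant, and DESeq2 called 0 and 3. Leaving out the long-depleted libraries gave 0 calls in the control, 5 higher in the mutant and 6 higher interactions. In the fit to all libraries the interaction was higher for zip-2 (1.85 ± 0.40, adjusted p = 0.0112), a bZIP factor of the response to blocked translation, and for hlh-30 (1.35 ± 0.35, adjusted p = 0.0308), the worm's TFEB homolog. Without copper, zip-2 (-1.33 ± 0.29, adjusted p = 0.00862), hlh-30, rab-1 and nhr-86 were lower in the mutant. These 4 of 35 tested lay close to the 12.5% of all genes called lower. The list's median log2 fold change in that comparison was 0.28, and -0.20 without the long-depleted libraries.

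Other infection-response effectors, such as lysozymes, saposin-like proteins and antimicrobial peptides, showed 25 higher and 3 lower of 61 tested (106 listed) in mutant against control on copper, with a median log2 fold change of 1.04, beside 6.93% of all genes called. The gene irg-5 rose from 8.42 to 98.0 CPM (3.54 ± 0.34, adjusted p = 2.7e-05), fipr-4 from 0.546 to 21.6 CPM (5.14 ± 0.56, adjusted p = 7.08e-05) and cnc-10 from 6.85 to 26.4 CPM (1.93 ± 0.25, adjusted p = 0.000232). The lysozyme gene lys-7 fell from 220 to 27 CPM (-3.03 ± 0.30, adjusted p = 2.99e-05). Like clec-41, lys-7 rose on copper in the control (2.28 ± 0.29, adjusted p = 0.000471), as did T24B8.5, a p38 target (4.71 ± 0.43, adjusted p = 1.76e-05). The gene T24B8.5 also rose on copper in the mutant (3.19 ± 0.41, adjusted p = 0.00032). Copper against none gave 4 higher and 12 lower in the control and 16 higher and 1 lower in the mutant, the interaction was higher for 25 and lower for 1, and without copper 6 were higher and 22 lower in the mutant. The shares of all genes higher and lower were 0.46% and 1.32%, 1.78% and 0.46%, 4.11% and 1.28%, and 9.39% and 12.5% in the same order. These shares are those of the fit to all libraries. Counts below without the long-depleted libraries belong beside that fit's own shares, given above with each comparison. Those shares were larger in every comparison but mutant against control without copper. Leaving out the long-depleted libraries gave 39 higher and 6 lower in mutant against control on copper, 10 and 13 for copper in the control, 29 and 4 for copper in the mutant, and 21 and 7 for the interaction. Mutant against control without copper then had 12 higher and 14 lower, and its median moved from -0.80 to -0.17. Galectins, the other large group of sugar-binding proteins, had 3 of 11 tested genes higher in mutant against control on copper (lec-2, lec-3 and lec-9) and none lower. They had 3 lower without copper (lec-6, lec-8 and lec-12) and 2 higher interactions (lec-8 and lec-9). Copper against none gave 0 called galectins by edgeR in either genotype, with an unadjusted p under 0.05 for 2 in the control and 4 in the mutant, and DESeq2 called 1 and 4. Without the long-depleted libraries 8 of the 11 were higher on copper in mutant against control, 4 rose on copper in the mutant, 0 changed in the control, 2 interactions were higher, and 2 genes were higher and 1 lower in the mutant without copper.

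Markers of tissues and of other processes moved in the same comparison, and their part in the results on the clec genes was not tested. In mutant against control on copper, 55 of 88 tested cuticle collagen genes, 24 of 28 major sperm protein genes and 15 of 28 FMRFamide-like peptide genes were higher. None of these lists had a lower gene, and over all genes tested 6.39% were higher and 0.542% lower. All 6 vitellogenin genes, which encode yolk proteins, were lower. Of 11 intestine markers, 1 was higher (ifb-2, an intermediate filament of the gut) and 1 lower (cpr-6, a cathepsin-like protease), and of 7 tested pharynx markers 1 was higher. When the long-depleted libraries were left out, 78 collagen genes were higher and 2 lower, 25 sperm protein genes, 24 peptide genes and 2 pharynx markers were higher, all 6 vitellogenins were lower, and 4 intestine markers were higher and 1 lower. Over all genes tested, too, more were called in that fit, as given above. No intestine, pharynx or vitellogenin marker was without counts, while 18 of 159 listed collagens, 1 of 35 sperm protein genes and 1 of 31 peptide genes had none.

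Summed over all listed genes, the intestine markers ran from 4304 to 8362 CPM in the copper-treated mutant, from 3374 to 6422 CPM in the copper-treated control, from 3319 to 4012 CPM in the untreated mutant and from 4444 to 15617 CPM in the untreated control. Most of this sum was asp-1, with means of 4277, 2743, 2432 and 7155 CPM in the same order. The means of the sums were 5622, 4229, 3714 and 8965 CPM. The collagens ran from 51995 to 98821, from 31401 to 61814, from 45890 to 53208 and from 23118 to 86255 CPM in the same order. The vitellogenins ran from 1801 to 7837 CPM in the copper-treated mutant, below all other libraries, which lay between 9993 and 22841 CPM. The sperm proteins ran from 1725 to 4134 CPM in the copper-treated mutant, from 718 to 1137 CPM in the copper-treated control, from 2186 to 2380 CPM in the untreated mutant and from 634 to 1968 CPM in the untreated control, so both mutant groups lay above the copper-treated control. The peptides ran from 415 to 714, from 156 to 307, from 248 to 286 and from 194 to 578 CPM in that order. The pharynx markers ran from 60.6 to 92.4, from 50.9 to 60.5, from 71 to 98.1 and from 24.3 to 46.4 CPM, with both mutant groups above both control groups.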

How the data were processed

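Total RNA (125 ng per library) went through a commercial digital mRNA-seq service, which reads transcript ends, on a NovaSeq instrument with single reads of 100 cycles, per the labels' protocols. Reads were processed with bcl2fastq, STAR 2.6.0a and HTSeq on the build ce11, per the submitters' processing notes. Settings, annotation release and strand mode are not given in the sources used here. The deposited values are raw counts per gene without normalization, and the headings of the 16 columns gave their samples.

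In R 4.3.3, edgeR 4.0.16 (with limma 3.58.1) was run on the counts with TMM factors, filterByExpr at its defaults (9787 genes kept), 1 mean per group over 16 libraries with 12 residual degrees of freedom, robust dispersions, the quasi-likelihood test and Benjamini-Hochberg adjustment over all genes tested. CPM values were computed here from the deposited counts over TMM-scaled totals of the tested genes. The comparisons were mutant against control without and with copper, copper against none in each genotype, and the interaction. The script was tested on simulated data. Floors of 3 counts and exact 95% intervals hold for counting error alone, as nothing in the sources states that molecules were counted by identifiers. The labels number the libraries of a group as biological replicates, without saying whether they came from separate cultures, and the p-values measure the spread between these libraries. No replicates agreed within counting noise (smallest chi-square per degree of freedom 2.75). Positions and transcript lengths came from an Ensembl annotation of WBcel235, and from a RefSeq table of the same assembly for rows it lacks.

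Members named are, for each comparison, up to 10 called genes with the smallest adjusted p in each direction, the 10 most abundant, and 19 genes with a known role. From each other list up to 4 genes with the smallest adjusted p are named. Members and lists were chosen with earlier results of these data known. The genes clec-51, clec-84, clec-125, clec-153 and clec-205, named after their values were seen, fall outside this rule. The 24 alternatives were other size factors (DESeq2 1.42.0 factors in edgeR), no filter beyond 1 count, a filter of 5 CPM in 4 libraries, DESeq2 itself, fits to the compared libraries alone, the replicate number as a block, each library left out in turn, all long-depleted libraries left out (those with a long-minus-short balance below -0.5), and offsets against a lowess trend on transcript length (span 0.3).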

Additional observations from a re-analysis of the deposited data

Results flagged for a closer look

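In 14 of 152 groups of 4 libraries examined for the named genes, 1 library lay farther from the other 3 than Dixon's 95% critical value allows, and chance alone gives about 1 in 20. The most abundant gene, clec-87, had such a library in 3 groups. It was read at 1433 CPM in untreated control replicate 2 (the others at 2314 to 2404), at 2320 CPM in copper-treated control replicate 1 (1288 to 1432) and at 2552 CPM in copper-treated mutant replicate 4 (1334 to 1442). Both high values came from long-depleted libraries, and the low one from the only untreated control library that was not long-depleted. In copper-treated control replicate 1, clec-65 was read at 96.5 CPM (the others at 72.7 to 75.3), clec-83 at 157 CPM (93.5 to 102) and clec-91 at 168 CPM (83.8 to 89.9). In copper-treated mutant replicate 4, clec-85 was read at 103 CPM (29.4 to 40.2), clec-91 at 201 CPM (93.2 to 106) and clec-150 at 245 CPM (98.6 to 102). The part of the long-depleted property in these values was not tested.

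Low genes gave single high values in 3 groups: clec-45 at 2.75 CPM in untreated control replicate 1 (0 in the others), clec-79 at 4.41 CPM in untreated control replicate 3 (0 to 0.623) and clec-70 at 2.32 CPM in untreated mutant replicate 4 (0.441 to 0.678). At depths where 3 counts are 0.661 to 1.69 CPM, such values rest on few reads. The gene clec-41 was read at 47.1 CPM in untreated mutant replicate 3 (38.2 to 39.6), and clec-67 at 29.4 CPM in copper-treated mutant replicate 1 (41.2 to 43.4).

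The response to copper was called different between the genotypes for 18 members by the interaction term (adjusted p 1.17e-05 to 0.0498). Of these calls, 11 were kept in every alternative fit. On the log2 scale, as the mutant's response minus the control's, the difference was 5.55 for clec-52, 3.64 for clec-47, 3.14 for clec-66, 5.68 for clec-3, 5.23 for clec-70, 2.5 for clec-62, 2.11 for clec-63 and 3.15 for clec-67. It was 2.09 for clec-49, 2.33 for clec-48, 1.97 for clec-222, 2.09 for clec-205, 1.67 for clec-265 and 2.80 for clec-227. For clec-76 no size is given because the copper-treated control had 0 counts, and its adjusted p was 0.0255. The negative differences were -3.51 for clec-223, -3.14 for clec-218 and -1.63 for clec-41.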

How the results depend on the processing

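Over 24 alternatives (23 for the interaction, which has no fit to fewer groups), 37 of the 78 called values of clec genes kept direction and call in all that tested them, and 41 lost the call in at least 1. For 3 of the 37 (clec-76 in 2 comparisons, clec-117 in 1), 22 or 23 alternatives tested the gene. So kept were 12 of 18 calls for mutant against control on copper, 11 of 15 for copper in the mutant, 11 of 18 interactions, 2 of 20 for mutant against control without copper and 1 of 7 for copper in the control. Without the long-depleted libraries the counts of called members were 29 for mutant against control on copper (18 in the fit to all libraries), 24 for copper in the mutant (15), 11 for copper in the control (7) and 11 for mutant against control without copper (20). In that fit the lone untreated control library is assumed to vary like the others, and clec-63 reversed to 0.0089 in mutant against control without copper. A fit to the compared libraries only left 1 call for copper in the control. Single libraries left out gave 4 to 30 calls for mutant against control without copper, 13 to 23 with copper, 3 to 12 for copper in the control, 11 to 17 for copper in the mutant and 15 to 28 for the interaction. For the alternatives other than the fit without the long-depleted libraries, the share of all genes called is not given here. The shifts in those fits are therefore not read as particular to the clec genes, and the cause of the shifts was not tested.

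With the replicate number as a block, 13 members were called for mutant against control without copper, 15 with copper, 3 for copper in the control, 13 for copper in the mutant and 14 for the interaction. Deviations gave little sign of pairing by number: 6 of 24 pairs of equal number were correlated above 0.1 (r -0.60 to 0.55). Its own number was the best match for 1 library. The check cannot exclude pairing, as the long-depleted libraries carry different numbers in different groups and could mask it. The filter on low counts left 206 members untested, 51 of them with 10 or more counts. With no filter beyond 1 count, 24 members were called in mutant against control on copper, against 18.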
